A study of Mus musculus with 16 samples.

Results

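The genes described here are chromatin remodellers and histone lysine enzymes of the mouse, read in demyelinated spinal cord during repair. They were chosen by name and by level. A gene was taken when it was protein coding, when its symbol began with Arid, Smarc, Kdm, Kmt or Chd, and when it had more than 10 reads in total over the 16 libraries. Of 46078 genes in the count table, 63 matched by name, 59 of these were protein coding, and 58 passed the minimum of reads. They fall into 9 Arid, 13 Smarc, 10 Chd, 18 Kdm and 8 Kmt genes. The values that chose them were the read totals, which ran from 54 for Kdm4d to 38621 for Kmt5a, while Arid3c fell outside with 2 reads. Of the 58, 57 entered the tests and Kdm4d did not, because it failed the filter on low counts.

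Nucleosome remodellers use ATP to slide, evict or exchange nucleosomes. The SWI/SNF or BAF complexes are built on the ATPase Smarca4 or Smarca2, with the shared Smarcb1, Smarcc, Smarcd and Smarce1 subunits and a large Arid subunit that distinguishes one form of the complex from another, and the Chd ATPases act alone or, as Chd4 does, at the heart of the NuRD deacetylase complex. The Kmt enzymes place methyl groups on histone lysines and the Kdm enzymes remove them. Kmt2a to Kmt2d write marks found at active promoters and enhancers, and the Kdm5 proteins erase the promoter mark. Kdm6a and Kdm6b erase the repressive mark that Polycomb deposits. In the oligodendrocyte lineage Smarca4, Chd7 and Chd8 are known to be needed for differentiation, and Kdm6b is known in macrophages as an inducible demethylase of inflammatory genes.

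The tissue was the lesion itself, cut by laser from frozen spinal cord of C57BL/6 mice aged 8-12 weeks after lysolecithin, which destroys myelin where it is injected. All 4 groups carried the lysolecithin lesion, and none was unlesioned. Control mice had a locked running wheel and exercise mice a free one, and lesions were taken at day 5 or day 10, and each of the 4 groups holds 4 libraries. The labels do not say that the libraries of a group came from separate animals, and the p-values below then reflect library-to-library spread, which may be technical. The RNA was amplified before sequencing because little was recovered, and the poly-A libraries were strand specific.

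Libraries held between 8125981 and 13930582 counts. At day 5 the groups were apart in depth, with 11204380 to 13930582 counts in control and 8125981 to 10930385 counts in exercise, and apart in the share of the mitochondrial ribosomal RNA gene mt-Rnr2, with 8.055% to 10.281% in control and 10.91% to 12.941% in exercise. The lesions held RNA of oligodendrocytes, astrocytes and microglia, and the highest level of any of the 3 T lymphocyte markers in any library was 0.559 CPM, for Cd8a. In bulk tissue, fewer cells of a type and less RNA per cell cannot be told apart. CPM is a gene's count divided by its library's total, as scaled by edgeR, and expressed per 1e6 counts; levels are compared between genes only as CPM per kilobase (kb) of exon.

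Per kb of exon, Kmt5a, a methyltransferase of histone H4 with a known role in the cell cycle, was the highest of the 58 at 40.4 CPM per kb over all libraries, followed by the BAF subunits Smarcd2 at 36.6 and Smarcc2 at 21.3. Kdm3b, a demethylase of histone H3, led the Kdm genes at 18.4, Arid2, the large subunit of the PBAF form of SWI/SNF, led the Arid genes at 11.8, and Chd4 led the Chd genes at 10.9. The lowest of each family were Arid5a at 0.466, Smarca1 at 0.803, Chd5 at 0.279, Kmt2d at 0.296 and Kdm5d at 0.053 CPM per kb. Of the ATPases of SWI/SNF, Smarca4 stood at 11.1 and Smarca2 at 7.3, and of the paired Arid subunits Arid1a stood at 8.19 and Arid1b at 2.16.

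**Figure D1:**
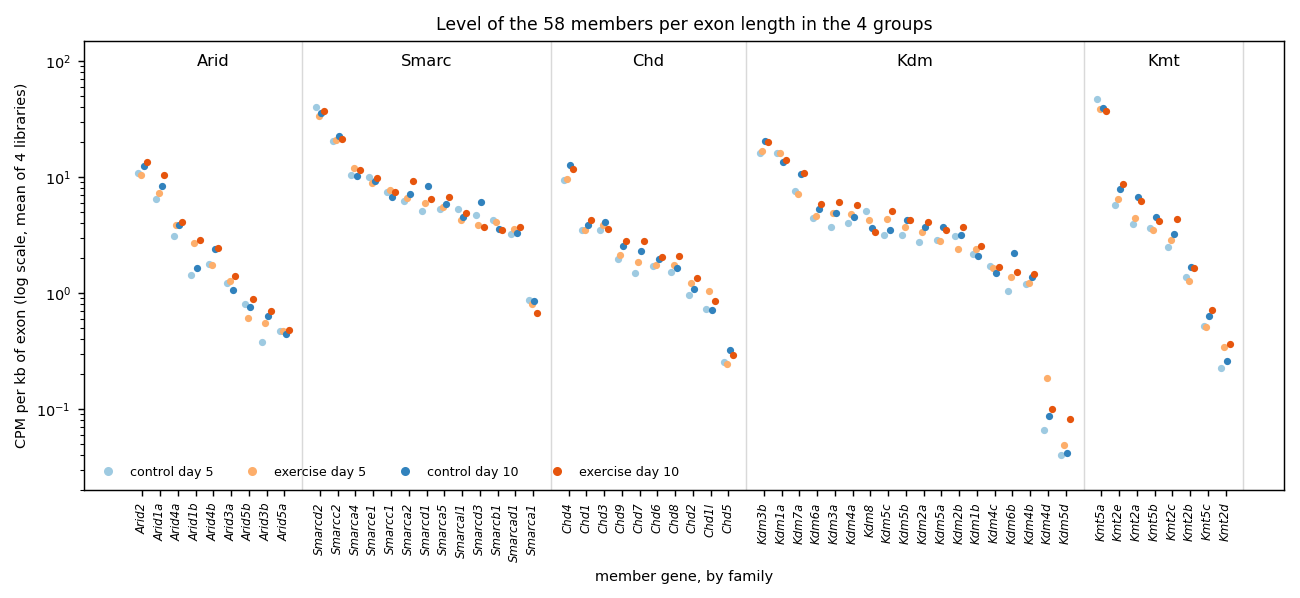
Mean level of each of the 58 genes in CPM per kb of exon (vertical axis, log scale), ordered by level within each family, with 1 point for each of the 4 groups of 4 libraries. Kmt5a is highest at 40.4 over all libraries and Kdm5d lowest at 0.053, and the 4 groups of a gene lie close together compared with the distance between genes.

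The level of Kdm5d is uncertain. It lies on the Y chromosome and has a close relative, Kdm5c, on the X chromosome, and each library gave it between 2 and 15 reads. Of other Y-linked genes, Ddx3y and Eif2s3y had 0 reads in all 16 libraries, Uty had 2 to 11 in each, and Xist, transcribed from an inactive X chromosome, had 1261 to 3388. Reads that map to both copies could not be separated here. One more gene, Chd2, shares 15.6% of its exon bases with another gene on the same strand, and 4 others share between 0.8% and 1.5%.

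The first question was how these genes differed between day 5 and day 10 of repair, in lesions of control mice and, in other libraries, of exercise mice. In control lesions 13 of the 57 tested genes rose from day 5 to day 10 and 0 fell, where 5.66% of all 15096 genes tested rose and 6.64% fell (edgeR quasi-likelihood test, Benjamini-Hochberg adjusted p at most 0.05). In exercise lesions 8 of 57 rose and 0 fell, where 5.17% of all genes rose and 4.9% fell. Leaving out any 1 of the 8 libraries compared gave 6 to 9 genes in control and 6 to 10 in exercise. The median log2 fold change of the 57 was 0.19 in control and 0.25 in exercise, against 0.01 for all genes tested in both. Counting without regard to the test, 41 of 57 lay above 0 in control and 47 in exercise, where 51.2% and 50.6% of all genes tested did. Above 0 in both lay 39 of the 57, and the share of all genes above 0 in both was not counted.

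The genes that rose came from all 5 families. In control they were 2 Arid, 1 Smarc, 2 Chd, 5 Kdm and 3 Kmt genes, and in exercise 3 Arid, 1 Smarc, 0 Chd, 2 Kdm and 2 Kmt genes. In both comparisons, which share no library, Arid1a, Arid4b, Kdm7a, Kmt2a and Kmt2c rose, which is 5 of the 13 in control and 5 of the 8 in exercise. The share of all genes that rose in both was not counted, so this overlap has no background here. Another 8 passed in control and not in exercise, and 3 passed in exercise and not in control. The interaction, which tests whether the change with time differed between exercise and control, called 0 of the 57.

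The median log2 difference in control and in exercise was 0.31 and 0.40 for the Kmt genes, 0.22 and 0.26 for the Kdm genes, 0.21 and 0.25 for the Chd genes, 0.19 and 0.36 for the Arid genes, and -0.03 and 0.07 for the Smarc genes, and the families were not tested against each other. The summed level of the 9 Arid genes ran from 251.1 to 284.2 CPM at day 5 and from 310.1 to 342.5 CPM at day 10 in control, and from 287.2 to 307.5 and from 380.5 to 386.0 CPM in exercise, so that the days did not overlap in either. The summed levels of the Chd, Kdm and Kmt genes did not overlap between the days in either comparison as well. The gap was narrow for Kmt in control, at 470.0 to 521.9 CPM at day 5 and 522.1 to 590.7 CPM at day 10. The summed level of the 13 Smarc genes ran from 619.6 to 684.0 CPM at day 5 and from 612.9 to 694.6 CPM at day 10 in control, which overlap. In exercise it ran from 606.7 to 664.0 CPM and from 661.0 to 703.2 CPM, which also overlap. These sums weigh the highest genes most, no test was made on them, and no background from other sets of genes was counted.

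The bases before the starts of the 5 genes that rose in both are shown, and they differ in composition. Each is the 250 bases before a RefSeq start (GRCm38.p6), 5′ to 3′ on the gene's own strand, and capitals mark each GC box, GGGCGG or its complement CCGCCC, a sequence that Sp1-type factors can bind. The windows are chr4:133756770-133757019 on the minus strand for Arid1a, chr13:14063534-14063783 on the plus strand for Arid4b, chr6:39206774-39207023 on the minus strand for Kdm7a, chr9:44881290-44881539 on the minus strand for Kmt2a and chr5:25498784-25499033 on the minus strand for Kmt2c.
Arid1a: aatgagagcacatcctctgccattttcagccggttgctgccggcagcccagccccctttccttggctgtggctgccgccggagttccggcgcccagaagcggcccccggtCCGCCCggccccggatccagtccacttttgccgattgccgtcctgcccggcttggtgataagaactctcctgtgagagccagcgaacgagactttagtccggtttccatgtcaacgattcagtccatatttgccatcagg
Arid4b: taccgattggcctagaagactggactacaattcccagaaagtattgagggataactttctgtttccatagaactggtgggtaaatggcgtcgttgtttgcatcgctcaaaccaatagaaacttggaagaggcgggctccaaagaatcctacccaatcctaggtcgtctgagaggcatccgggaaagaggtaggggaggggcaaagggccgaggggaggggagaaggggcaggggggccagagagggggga
Kdm7a: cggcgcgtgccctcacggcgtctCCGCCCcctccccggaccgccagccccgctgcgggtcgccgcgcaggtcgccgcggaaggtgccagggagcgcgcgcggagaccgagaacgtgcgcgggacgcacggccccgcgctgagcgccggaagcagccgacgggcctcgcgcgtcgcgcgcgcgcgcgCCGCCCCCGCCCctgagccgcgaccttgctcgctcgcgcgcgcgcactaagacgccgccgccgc
Kmt2a: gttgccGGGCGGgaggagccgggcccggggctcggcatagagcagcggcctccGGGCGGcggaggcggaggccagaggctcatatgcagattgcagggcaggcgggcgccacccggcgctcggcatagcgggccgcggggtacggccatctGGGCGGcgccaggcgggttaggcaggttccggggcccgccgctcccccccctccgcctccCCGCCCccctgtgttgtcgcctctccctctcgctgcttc
Kmt2c: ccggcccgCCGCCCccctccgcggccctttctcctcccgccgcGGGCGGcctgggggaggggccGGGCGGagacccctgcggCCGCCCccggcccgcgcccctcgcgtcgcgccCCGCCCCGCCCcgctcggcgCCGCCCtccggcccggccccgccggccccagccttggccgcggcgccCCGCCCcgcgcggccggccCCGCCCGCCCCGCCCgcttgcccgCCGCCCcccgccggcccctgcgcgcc

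GC boxes numbered 1 for Arid1a, 0 for Arid4b, 3 for Kdm7a, 4 for Kmt2a and 12 for Kmt2c, counting overlapping ones. Kmt2c was the richest in G and C at 91.6% and Kdm7a had the most CpG dinucleotides at 56, while Arid4b had 54.0% G and C and 8 CpG. Over the 32841 RefSeq windows of the same length, 32.7% held a GC box, the median G and C content was 52.4% and the median number of CpG was 6. Windows were found for 43 of the 58 genes (58 windows), and 69.0% of these held a GC box, with a median of 20 CpG. CCAAT, searched on both strands as the GC box was, occurred 3 times before Arid4b and not before the other 4, and in 33.9% of all windows. A match is a run of letters and not a bound site. The RefSeq start of Arid4b lies 552 bases inside the 5′ end of the gene model used for the counts, so its window falls within that model.

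Among the genes of SWI/SNF, Arid1a rose in both comparisons, Smarcd1 in control, and Arid2 and Smarca2 in exercise. Arid1a, the DNA-binding subunit of canonical BAF, stood at 74.3, 72.1, 81.4 and 71.3 CPM in control lesions at day 5 and at 101.0, 99.3, 95.5 and 92.2 CPM at day 10. In exercise lesions it stood at 79.4, 88.6, 80.8 and 88.0 CPM at day 5 and at 125.1, 131.2, 114.2 and 109.7 CPM at day 10. In both, every day 10 library lay above every day 5 library. The log2 fold change was 0.38 ± 0.09 (SE) in control (adjusted p = 0.00912) and 0.51 ± 0.09 in exercise (adjusted p = 0.00147) by edgeR, and both calls held when any 1 library was left out.

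Arid2 stood at 116.6 ± 9.53 CPM (SD, n = 4) at day 5 and 133.3 ± 7.04 at day 10 in control, a log2 difference of 0.19 that missed the threshold. In exercise it rose from 112.7 ± 7.85 to 145.9 ± 8.16 CPM, with adjusted p = 0.0128. Arid4b, a DNA-binding partner of the Sin3 deacetylase complex and no part of SWI/SNF, rose by 0.44 in control and 0.49 in exercise on the log2 scale. Its control libraries ran from 22.1 to 27.0 CPM at day 5 and from 30.5 to 35.4 CPM at day 10, with no overlap, and the control call held in 4 of the 8 fits that left out a library (adjusted p 0.0216 to 0.0654). Arid1b, which takes the place of Arid1a in some BAF complexes, differed between the days by 0.19 in control and 0.11 in exercise, neither past the threshold.

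Smarca4, the ATPase needed for oligodendrocyte differentiation, did not pass in either. It stood at 72.1, 81.1, 57.8 and 62.0 CPM at day 5 and 64.1, 69.0, 69.5 and 63.2 CPM at day 10 in control, with overlapping libraries and a log2 difference of -0.04. Smarca2, its alternative in the same complex, rose in exercise lesions from 49.9, 54.1, 50.3 and 52.0 CPM to 69.2, 70.9, 68.5 and 84.3 CPM. That is 0.51 ± 0.11 on the log2 scale (edgeR, adjusted p = 0.00541), with no overlap between days. In control the difference was 0.18 and did not pass. Smarcd1, a subunit that links the complex to transcription factors, rose in control from 13.4, 15.2, 19.1 and 17.4 CPM to 24.4, 21.3, 20.9 and 39.7 CPM. The log2 fold change of 0.71 (adjusted p = 0.0162) rested in part on replicate 5 of day 10, without which it was 0.44 with adjusted p = 0.0713. The core subunit Smarcb1 differed by -0.28 in control and -0.22 in exercise and passed in neither. The other Smarc genes passed in neither comparison.

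Of the Chd remodellers, Chd4 and Chd7 rose in control lesions. Chd4, the NuRD ATPase, stood at 65.8, 76.0, 82.4 and 77.0 CPM at day 5 and at 116.3, 93.6, 103.1 and 97.0 CPM at day 10, with no overlap, a log2 fold change of 0.44 ± 0.12 and adjusted p = 0.0173 (edgeR), which passed in 6 of the 8 fits without 1 library. Chd7 stood at 16.2, 20, 16.1 and 29.9 CPM at day 5 and at 30.1, 35.0, 31.0 and 30.6 CPM at day 10. The day 5 libraries were spread, and replicate 6 at 29.9 CPM lay just below the day 10 libraries. The log2 fold change of Chd7 was 0.62 (adjusted p = 0.0409) and passed in 1 of the 8 fits that left out a library, the one without that replicate 6, at 0.87. In exercise the same gene differed by 0.61 with adjusted p = 0.0517, and Chd4 by 0.30 with adjusted p = 0.11. Chd8, whose loss impairs oligodendrocyte development, differed by 0.10 in control and 0.25 in exercise and passed in neither.

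Among the lysine demethylases the rise in control was led by Kdm6b. It stood at 7.55, 6.83, 6.15 and 8.36 CPM in control lesions at day 5 and at 14.6, 13.7, 17.6 and 15.6 CPM at day 10. The groups were far apart, with a fold change of 2.13, a log2 fold change of 1.09 ± 0.19 and adjusted p = 0.00121 (edgeR), the smallest of the 57. In exercise lesions Kdm6b stood at 9.57, 9.12, 10.4 and 9.02 CPM at day 5 and at 11.1, 6.64, 12.0 and 12.5 CPM at day 10, with overlapping libraries and a log2 difference of 0.14 that did not pass. Kdm6a, its X-linked relative, differed by 0.26 in control and 0.35 in exercise and passed in neither. A noncoding gene antisense to Kdm6b had 215 reads in all, and the counts were made with strand.

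Kdm7a, a demethylase with a reader domain for methylated histones, rose in both. Its control libraries went from 79.0, 87.3, 81.5 and 59.3 CPM to 118.8, 104.9, 108.2 and 97.6 CPM, and its exercise libraries from 88.1, 60.6, 61.1 and 77.1 CPM to 102.6, 128.0, 90.4 and 118.0 CPM. The days did not overlap in either, and the log2 fold changes were 0.48 and 0.61, which passed in 2 and in 8 of the 8 fits without 1 library (adjusted p 0.0347 to 0.0954 and 0.00568 to 0.0467). Kdm2a and Kdm2b, a pair of demethylases that bind unmethylated CpG, passed in different comparisons. Kdm2a rose in control from 39.4 ± 3.99 to 53.4 ± 1.77 CPM (SD, n = 4), with a log2 fold change of 0.44. Kdm2b rose in exercise from 26.0 ± 3.29 to 40.1 ± 11.4 CPM, with a log2 fold change of 0.63 that fell to 0.43 without replicate 17 of day 10, which stood at 55.8 CPM. The call was lost without that replicate and held in 4 of the 8 fits that left out a library (adjusted p 0.00801 to 0.0842 by edgeR). Kdm3b rose in control from 114.4 ± 6.66 to 145.9 ± 4.16 CPM (adjusted p = 0.0431 by edgeR) and passed in 0 of the 8 fits that left out a library. Kdm5a, an eraser of the promoter mark, was the fifth Kdm gene called in control, at a log2 fold change of 0.39. Kdm1a, the amine oxidase demethylase LSD1, differed by -0.26 in control and -0.20 in exercise and passed in neither.

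Of the 5 Kmt2 genes, Kmt2a to Kmt2d write marks of active promoters and enhancers and Kmt2e is not known as such a writer. All 5 lay above 0 in both comparisons, and 3 of 5 passed in control and 2 of 5 in exercise. Over all genes tested, 51.2% lay above 0 and 5.66% rose in control, and 50.6% and 5.17% in exercise. Among all genes with over 10 kb of exon, as all but Kmt2b have, 68.4% and 68.2% lay above 0 and 11.72% and 12.89% rose. With each library's trend on exon length taken out, only Kmt2a kept its call in control and only Kmt2c in exercise. Kmt2a stood at 56.6, 62.6, 77.6 and 65.3 CPM in control lesions at day 5 and at 136.2, 90.1, 94.7 and 130.8 CPM at day 10. In exercise lesions it went from 82.0, 70.1, 76.0 and 68.7 CPM to 97.4, 86.3, 115.4 and 113.2 CPM. The day 10 libraries were higher throughout, by 0.79 ± 0.14 on the log2 scale in control (edgeR, adjusted p = 0.00163) and by 0.47 ± 0.14 in exercise (adjusted p = 0.0421). The control call held in all 8 fits that left out a library and the exercise call in 2 of 8.

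Kmt2c, which acts mainly at enhancers, stood at 60.8, 49.3, 46.6 and 44.5 CPM in control at day 5 and at 66.1, 73.7, 63.1 and 60.7 CPM at day 10, where the lowest day 10 library lay just under the highest day 5 library. In exercise it rose from 62.7, 55.2, 59.4 and 56.9 CPM to 88.2, 74.7, 96.7 and 95.9 CPM with no overlap. The log2 fold changes were 0.39 (adjusted p = 0.0325, passing in 3 of 8 fits without 1 library) and 0.60 (adjusted p = 0.00298, passing in 8 of 8). Kmt2e rose in control by 0.47 on the log2 scale, a call that held in 3 of the 8 fits without 1 library, and differed by 0.41 in exercise with adjusted p = 0.0641. Kmt2d, the enhancer writer most like Kmt2c, was low and differed by 0.19 and 0.08. Kmt5a had day 10 libraries all below its day 5 libraries in control, 188.8 to 221.4 against 225.1 to 269.6 CPM, yet its log2 difference of -0.24 did not pass (adjusted p = 0.0951).

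**Figure D2:**
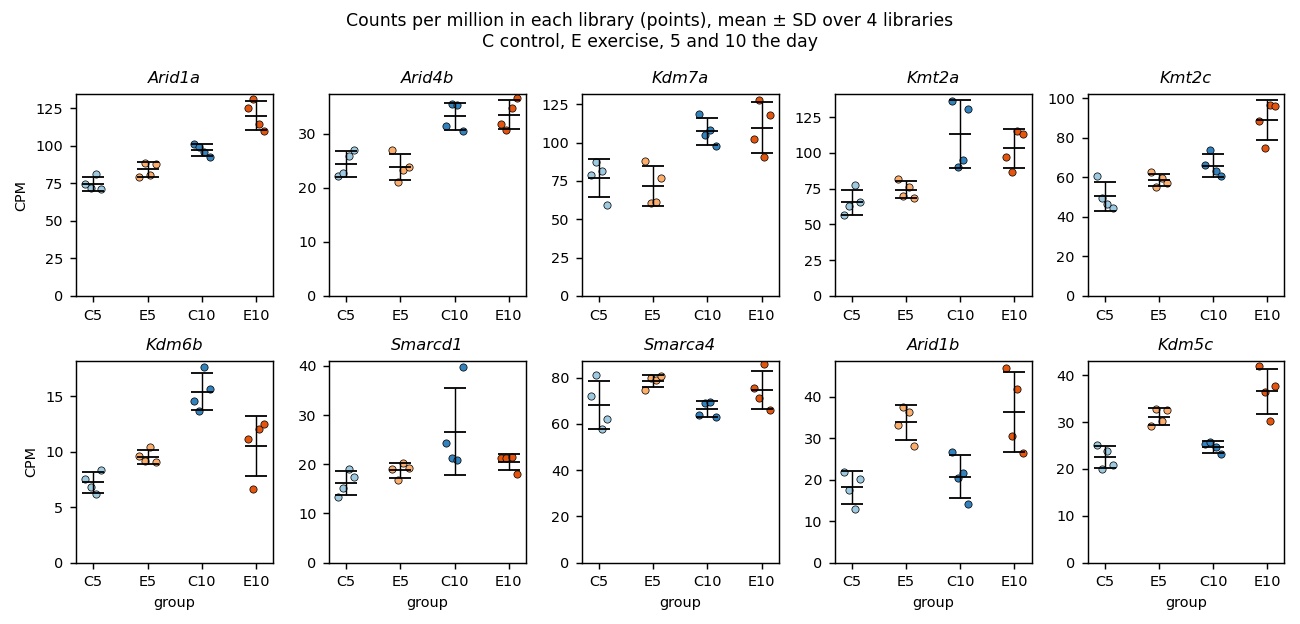
CPM (vertical axis, from 0) of 10 genes in each of the 16 libraries, 1 point per library, with the mean and SD over 4 libraries as black bars; C is control, E exercise, 5 and 10 the day. Arid1a, Kdm7a and Kmt2a lie higher at day 10 in both, Kdm6b stands out in control at day 10 (13.7 to 17.6 CPM), and Arid1b and Kdm5c lie higher in exercise on average at both days.

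**Figure D3:**
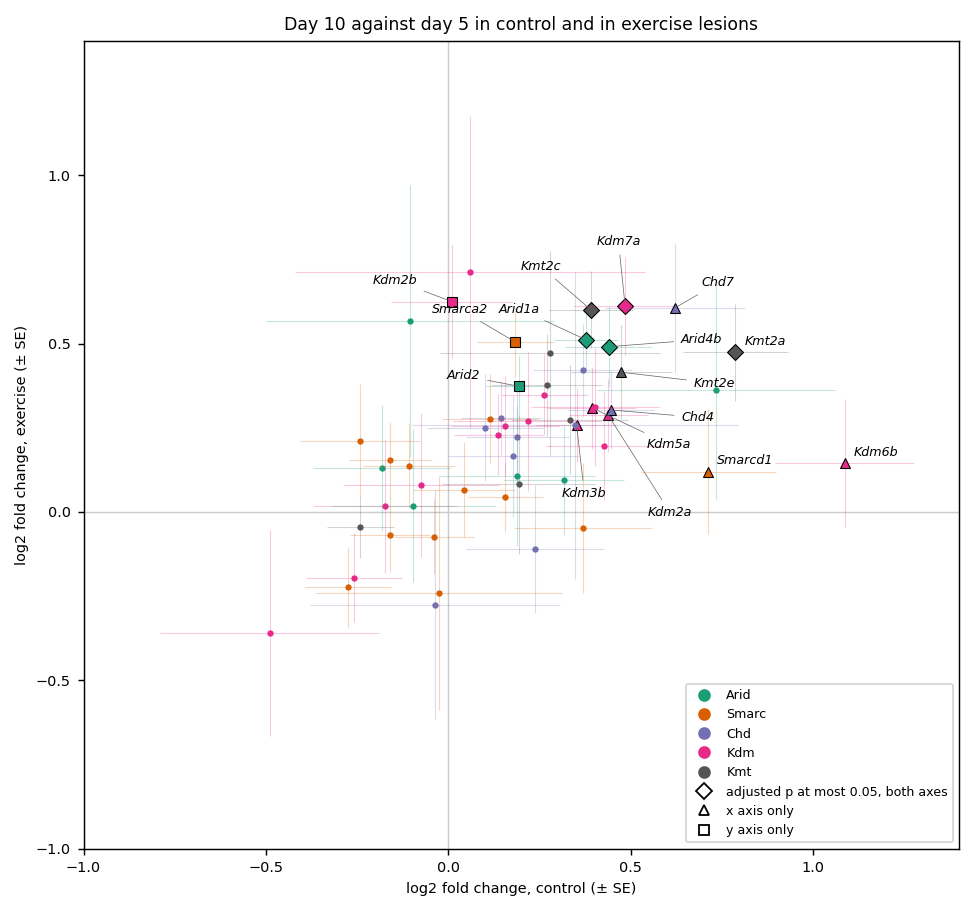
Log2 fold change of day 10 against day 5 in control lesions (horizontal axis) and in exercise lesions (vertical axis) for the 57 tested genes, with the SE as thin lines and the family as colour. Diamonds are the 5 genes past the threshold in both, triangles the 8 in control only and squares the 3 in exercise only, and 39 of 57 genes lie above 0 on both axes.

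Exon length moved with these differences. The median exon length of the tested genes was 7930 bases, against 3815 for all genes tested, and ran from a median of 6118 for the Smarc genes to 12280 for the Kmt genes. Of the 21 genes with over 10 kb of exon, 9 rose in control, where 11.72% of the 1024 genes of that length rose, and 7 rose in exercise, where 12.89% did. Of the 27 genes of 5 to 10 kb, 3 rose in control and 1 in exercise, where 7.41% and 6.93% of all genes of that length rose. Of the 9 shorter than 5 kb, Smarcd1 alone rose in control and 0 rose in exercise, where 4.31% and 3.64% did. The median log2 difference of the longest class was 0.37 in both comparisons for these genes and 0.16 for all genes of that length.

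Of the 16 genes that rose in either comparison, 11 had over 10 kb of exon. Across the 57 genes the log2 difference and the log2 exon length had a Pearson correlation of 0.38 in control and 0.47 in exercise, and across all genes 0.08 and 0.05. These points are genes read in the same libraries and are not independent replicates. With each library's trend on exon length taken out, 3 genes rose in control, which were Kdm6b (log2 1.04), Kmt2a (0.59) and Smarcd1 (0.74), and 4 in exercise, which were Arid1a (0.40), Kdm7a (0.53), Kmt2c (0.38) and Smarca2 (0.44). Under the same offset 5.11% of all genes rose in control and 4.74% in exercise, and the 3 of 57 in control lie near that share. None of the 57 rose in both comparisons under this offset, and Arid4b rose in neither. The part that RNA length, fragmentation or amplification had in the rise of the long genes was not tested.

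**Figure D4:**
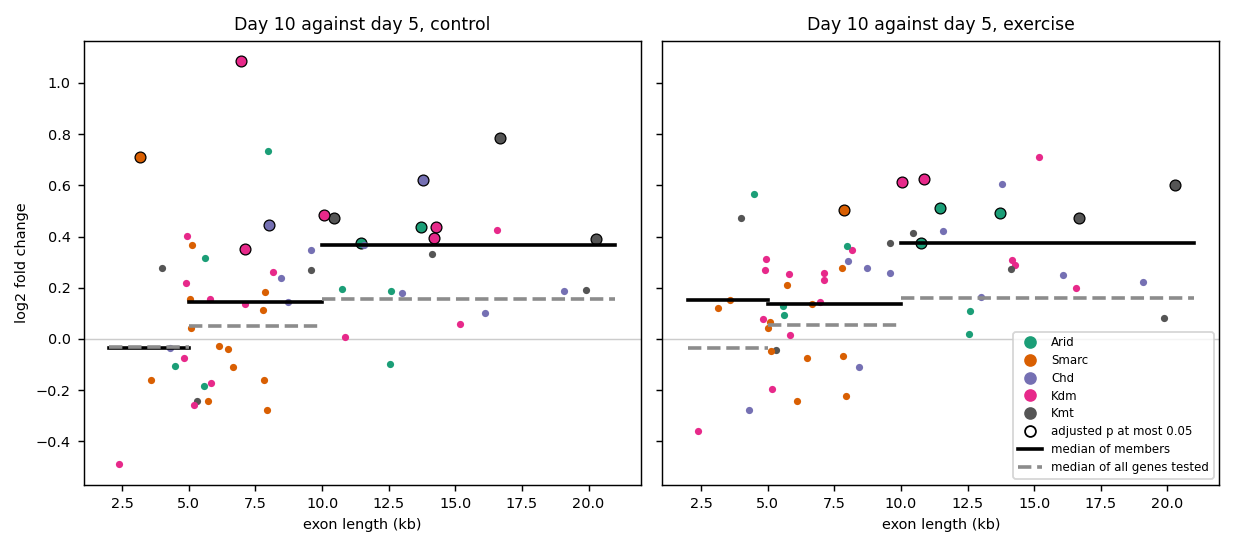
Log2 fold change of day 10 against day 5 (vertical axis) by exon length in kb (horizontal axis) in control and in exercise lesions, 1 point per tested gene, with outlined points past the threshold. Solid lines are the medians of these genes and dashed lines those of all genes tested in each length class; over 10 kb the solid lines lie at 0.37 and the dashed lines at 0.16.

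Markers of proliferation and of cell types also moved between the days. All 10 proliferation markers fell in both comparisons, and their summed level went from 593.6 to 628.1 CPM at day 5 to 166.6 to 232.2 CPM at day 10 in control, and from 502.0 to 651.8 to 183.5 to 366.0 CPM in exercise. Of 6 mature oligodendrocyte markers 5 rose in control and 3 in exercise, with sums of 10041.0 to 13817.9 CPM at day 5 and 22577.1 to 25392.4 CPM at day 10 in control. In exercise the sums overlapped, with 11144.7 to 15764.6 CPM at day 5 and 11139.4 to 25747.8 CPM at day 10. Of 6 microglia markers 4 rose in control and 5 in exercise, and of 5 markers of monocyte-derived macrophages 3 fell in control and 4 in exercise. The part of these shifts in the rise of the chromatin genes was not tested.

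Other chromatin genes were listed by complex. Of 126 tested genes on 8 lists, 8 rose and 9 fell in control and 9 rose and 3 fell in exercise, with medians of 0.03 and 0.11. Over all genes, as given above, 5.66% rose and 6.64% fell in control, which the control counts lie near, and 5.17% rose and 4.9% fell in exercise. Ezh2, the Polycomb enzyme whose mark Kdm6a and Kdm6b erase, fell in both, from 25.6 to 13.8 CPM in control (log2 -0.89) and from 22.6 to 15.7 CPM in exercise (log2 -0.53). Uhrf1 and Dnmt1, which copy DNA methylation after replication, fell in both as well, Uhrf1 by 1.47 and 0.88 and Dnmt1 by 0.68 and 0.65 on the log2 scale. Among partners of the genes above, Gatad2b of NuRD rose by 0.58 in control and 0.53 in exercise while Gatad2a fell by 0.45 in control. Of 11 tested subunits of the COMPASS complexes, which hold Kmt2a to Kmt2d, 0 passed in any comparison.

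Ash1l, a SET-domain methyltransferase, rose by 0.54 in control and 0.43 in exercise, and Bptf and Rsf1, partners of the ISWI ATPases, rose in both. Of 12 histone acetyltransferases, 4 rose in exercise, Ep300 by 0.54, Kat6b by 0.46, Kat6a by 0.40 and Crebbp by 0.33, and 0 rose in control, where Hat1 fell by 0.64. A difference between the 2 comparisons was tested by the interaction, which called 0 of the 126. Sirt2, a deacetylase abundant in myelinating oligodendrocytes, rose in control from 212.6 to 364.1 CPM and was not called in exercise. Mature oligodendrocyte markers rose in both comparisons, as given above, and their part in the rise of Sirt2 was not tested.

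The second question was whether exercise changed these genes. At day 5, 0 of 57 passed, with a background of 0% of 15096 genes higher and 0% lower. At day 10, 0 of 57 passed, where 0.106% of all genes were higher and 0.0861% lower. At an unadjusted p under 0.05, edgeR put 5 genes higher and 3 lower in exercise at day 5, where 4.9% of all genes were higher and 5.12% lower, and 8 higher and 2 lower at day 10, where 7.25% were higher and 5.56% lower. DESeq2 called 2 at day 5, Arid1b and Kdm5c, and 6 at day 10, these 2 with Arid1a, Kmt2c and Smarca2 as higher and Smarcd3 as lower in exercise. DESeq2 gave an adjusted p to 46 of the genes at day 5 and 56 at day 10, and over all genes with one it called 0.338% higher and 0.534% lower at day 5 and 0.907% higher and 0.675% lower at day 10. The interaction of exercise and day called 0 of 57 by edgeR (background 0%) and 0 of the 46 with an adjusted p by DESeq2, where DESeq2 called 0.199% of all genes, and 4 had an edgeR unadjusted p under 0.05, where 9.11% of all genes did.

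Arid1b had the smallest p of the 57 at day 5. At day 5 it stood at 21.8, 17.5, 12.9 and 20.2 CPM in control and at 33.2, 37.5, 36.3 and 28.1 CPM in exercise, and at day 10 at 26.6, 20.5, 21.6 and 14 CPM in control and at 46.9, 30.4, 41.8 and 26.3 CPM in exercise. The groups were apart at day 5, and at day 10 one exercise library lay just below the highest control library. The log2 differences were 0.90 ± 0.21 and 0.82 ± 0.21, with edgeR adjusted p = 0.268 and 0.13 and DESeq2 adjusted p = 0.0191 and 0.0252.

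Kdm5c, an X-linked eraser of the promoter mark, was the one gene of the 57 whose exercise libraries lay above all control libraries at both days. The share of all genes that did so at both days was not counted, so this has no background here. It stood at 25.1, 20.1, 23.8 and 20.9 CPM in control and at 29.2, 32.9, 30.2 and 32.6 CPM in exercise at day 5. At day 10 it stood at 25.3, 25.8, 24.7 and 23.1 CPM in control and at 42.0, 36.5, 30.2 and 37.8 CPM in exercise. The log2 differences were 0.47 and 0.57, with edgeR adjusted p = 0.27 and 0.0601, and DESeq2 adjusted p = 0.0321 and 0.00161. Without replicate 18 of exercise day 10 the edgeR value at day 10 was 0.0263.

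Libraries did not overlap for 6 genes higher and 3 lower in exercise at day 5, where 3.33% and 3.97% of all genes showed this. At day 10 they did not overlap for 7 higher and 2 lower, where 3.3% and 2.58% of all genes did. Kmt5a was lower at day 5, with 195.1 to 216.1 CPM in exercise and 225.1 to 269.6 CPM in control. At day 10 Smarca2, Kmt2c and Arid1a were higher in exercise by 0.40, 0.43 and 0.31 on the log2 scale, and Smarcd3, a BAF60 subunit known from muscle and heart, was lower by a log2 difference of -0.72. Smarcd3 stood at 28.3, 28.5, 29.3 and 38.9 CPM in control and at 18.8, 16.4, 26.0 and 14.6 CPM in exercise, and these 4 genes had edgeR adjusted p between 0.139 and 0.165, with Smarcd3 at 0.0356 without replicate 18 of exercise. Kmt2d was higher in exercise at both days, by 0.60 and 0.49, with adjusted p = 0.386 and 0.338.

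Kdm6b in exercise lay above control at day 5 and below it at day 10. Its exercise libraries were all above control at day 5, 9.02 to 10.4 against 6.15 to 8.36 CPM, and all below control at day 10, 6.64 to 12.5 against 13.7 to 17.6 CPM. The log2 differences were 0.40 (adjusted p = 0.501) and -0.54 (adjusted p = 0.239). The interaction was -0.94 ± 0.27, with an unadjusted p of 0.00247 and an edgeR adjusted p of 0.431, so that the difference between days was not past the threshold.

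**Figure D5:**
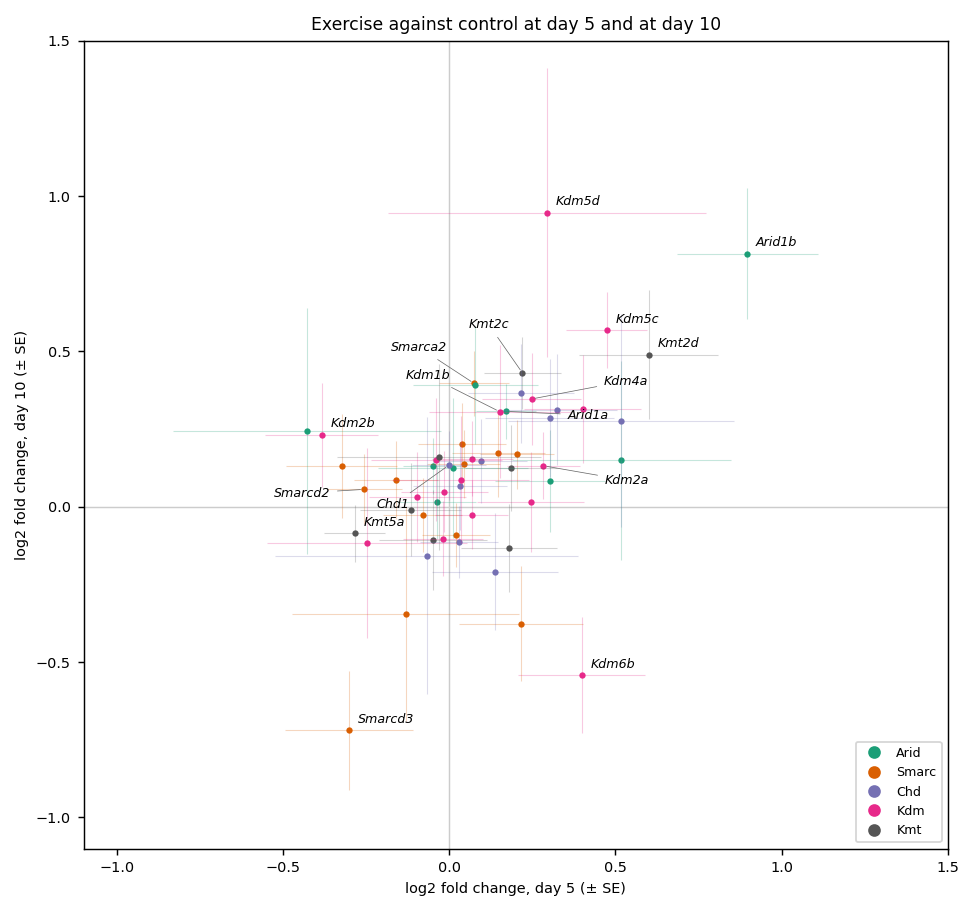
Log2 difference of exercise against control at day 5 (horizontal axis) and at day 10 (vertical axis) for the 57 tested genes, with the SE as thin lines and the family as colour; named genes have groups that do not overlap at 1 or both days. No gene is past the threshold of adjusted p 0.05; Arid1b lies at 0.90 and 0.82, Kdm5c at 0.47 and 0.57, and Kdm6b at 0.40 and -0.54.

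The authors' deposited table gave other calls for the same contrasts. For day 5 the authors' deposited table called 2 of the 51 genes that had an adjusted p, Arid1b at a log2 fold change of 0.89 with adjusted p = 0.00075 and Kdm5c at 0.47 with adjusted p = 0.0322. Over all genes with an adjusted p the authors' deposited table had 0.967% higher and 1.48% lower at that day. For day 10 the authors' deposited table, which lists 7 libraries and leaves out exercise replicate 17, called 1 of 57, Kmt2c at 0.50 with adjusted p = 0.00909, where 0.574% of all genes were higher and 0.568% lower. There the authors' deposited table put Arid1b at adjusted p = 0.0512 and Kdm5c at 0.0573. At day 5 the groups also differed in depth, as given above, and the summed neuron markers ran from 462.6 to 874.5 CPM in exercise and from 330.8 to 481.5 CPM in control with 0 of 7 called; the part of either in these values was not tested. At day 10 all 10 proliferation markers and all 6 microglia markers lay above control in exercise and all 6 mature oligodendrocyte markers below, with medians of 0.46, 0.51 and -0.44 on the log2 scale and 0 called. Their sums in exercise against control overlapped. They were 183.5 to 366.0 against 166.6 to 232.2 CPM for proliferation and 1500.8 to 2369.7 against 1231.7 to 1613.9 CPM for microglia. For mature oligodendrocytes they were 11139.4 to 25747.8 against 22577.1 to 25392.4 CPM. The sums did not overlap for endothelium, at 24.3 to 45.2 against 45.4 to 53.6 CPM. Nor did they for Schwann cells, at 0.976 to 6.29 against 8.43 to 52.2 CPM, and 0 genes of these lists were called. Those of astrocytes, neurons, oligodendrocyte precursors and monocyte-derived macrophages overlapped. The part of these markers in the day 10 values was not tested.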

How the data were processed

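The deposited table holds raw read counts per gene for 16 libraries. Per the file header, the authors counted reads on Ensembl genes of GRCm38 with featureCounts 1.5.0-p1, using strand, and alignment used TopHat2 2.0.10 and Bowtie 1.1.2 per the submitters' processing notes. The authors' deposited comparison tables give log2 fold changes and p-values adjusted for multiple tests, made with DESeq2 1.12.4 per the submitters' processing notes, and were only read out. Symbols and gene types came from GENCODE M21 by gene ID (45229 of 46078 matched).

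Counts were tested with edgeR 4.0.16 (R 4.3.3): TMM scaling, a filter for low counts (15096 genes kept), a mean per group over 16 libraries (12 residual degrees of freedom), the robust quasi-likelihood test and Benjamini-Hochberg adjustment over all genes tested, with a threshold of 0.05. Levels are CPM on the scaled library size. Alternatives were DESeq2 1.42.0, limma-voom (limma 3.58.1), other scaling, no filter, an offset for exon length, only the compared groups, a replicate block and leaving out each library. The genes and lists were chosen with earlier results of these data known. Named genes were, per comparison, up to 10 past the threshold in each direction by smallest p (else the 3 smallest, given as not passed), a list of known regulators, and the highest and lowest of each family. Kdm5a, and genes named for a level only, lie outside this rule and were chosen after their values were seen. The fit was tested on simulated data.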

Additional observations from a re-analysis of the deposited data

Results flagged for a closer look

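Single libraries stood apart from the other 3 of their group in 7 of 124 groups checked with Dixon's test, and chance gives about 1 in 20. In control lesions at day 10, replicate 5 was high for Chd5 at 4.91 CPM (others 2.36, 2.51 and 2.66) and for Smarcd3 at 38.9 CPM (others 28.3, 28.5 and 29.3). Kdm2a was high in replicate 5 of control day 5 at 45.4 CPM (others 37.0, 37.3 and 38.0) and in replicate 3 of control day 10 at 56.0 CPM (others 52.1, 52.6 and 52.7). In exercise lesions at day 10, replicate 19 was high for Smarca2 at 84.3 CPM (others 68.5, 69.2 and 70.9) and low for Smarcd1 at 18.1 CPM (others 21.2, 21.3 and 21.4). Smarcd2 was high in replicate 17 of the same group at 145.1 CPM (others 129.2, 129.6 and 130.8).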

How the results depend on the processing

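In control lesions, 13 genes rose between the days, 13 with DESeq2, limma-voom, other scaling or only the compared groups, 9 without the filter on low counts, 3 with the exon-length offset, and 6 to 9 when 1 library was left out. With a replicate block in a fit of the compared groups, the count at day 10 against day 5 in control was 1. For exercise at day 5 it was 0. Few libraries shared a number, so the block fits had little left to estimate the spread from. Same-numbered libraries correlated between -0.029 and 0.069, and they are too few to tell whether the numbers pair libraries. In exercise lesions 8 rose, 12 with DESeq2, 4 with the exon-length offset, 5 with only the compared groups and 6 to 10 when 1 library was left out. Exercise against control gave 2 at day 5 and 6 at day 10 with DESeq2, and 0 to 2 at day 10 when 1 library was left out (2 without replicate 18 of exercise day 10, Kdm5c and Smarcd3). The cause of these shifts was not tested. Over 31 named genes and the 5 comparisons, 2343 of 2445 values stayed on their side of the threshold, 80 no longer passed and 22 newly passed. Of the 2343, 112 changed sign, none of them past the threshold in either fit, and the largest reported log2 value among them was 0.294 in size.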
